A study of Mus musculus with 28 samples.

Results

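Stk3 and Stk4 encode MST2 and MST1, the kinases at the head of the Hippo cascade. They act through the Lats kinases to phosphorylate Yap and hold it outside the nucleus. Unphosphorylated Yap enters the nucleus and joins Tead factors at enhancers. In lung epithelium the pathway is known for its part in alveolar growth, repair and cell fate. The comparison set 6 RNA libraries called Yap active against 4 control libraries, 10 of the 28 libraries of the study and of its 19 RNA libraries, and the libraries were taken by their labels alone. All 23478 gene rows of the count table were read, and genes and programmes beyond the usual alveolar markers were followed.

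The Yap active animals had the genotype Stk3flox/flox/Stk4flox/flox SftpcCreert2, in which Cre fused to a hormone-binding estrogen receptor domain is driven by the surfactant gene Sftpc. Their controls were Stk3flox/flox/Stk4flox/flox, with the same floxed alleles and no Cre in the label. The deletion dates from postnatal day 3 and the cells from postnatal day 14. EPCAM-positive lung cells were sorted magnetically after cells with surface markers of blood, endothelium and stroma had been removed, and poly(A) RNA was sequenced in paired reads of 150 bp. Sftpc drives Cre in alveolar type 2 (AT2) cells, whereas all EPCAM-positive cells entered the libraries, and the recombined share was not given in the sources used here. Nor do they tell if controls received the inducing drug or if libraries stand for separate animals. The p-values therefore measure the spread between these libraries, which may be technical.

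Libraries held 34.98 M to 43.5 M counts, and values below are CPM, read counts scaled to library size with TMM factors. AT2 markers were abundant in every library, and the purity of the sort was not tested. The 20 AT2 markers summed to 70797 to 185426 CPM in Yap active libraries and to 72050 to 184719 CPM in control libraries, and Sftpc alone took 11239 to 56759 CPM in Yap active libraries and 11639 to 83336 CPM in controls. Markers of cells that the sort should have removed were measured as well. Endothelial markers summed to 224 to 361 CPM in Yap active libraries and 228 to 599 CPM in controls. Of the 14 tested, 1 had a log2 fold change, Yap active over control, above 0 (49.4% of all genes), with a median of -1.56. Mesenchymal markers summed to 1442 to 8694 CPM and 3026 to 9353 CPM. The 4 adult globin genes Hbb-bs, Hbb-bt, Hba-a1 and Hba-a2 stood at 0 in every library, while all erythroid markers summed to 0.757 to 5.46 CPM and 1.29 to 13.6 CPM. Whether the 0 values come from the sort or from the counting was not tested. In bulk RNA, fewer cells of a type and less RNA per cell cannot be told apart.

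The targeted kinases came first. Stk3 lay at 49.5, 33.8, 35.4, 32.5, 33.2 and 30.6 CPM in Yap active libraries 1 to 6, against 53.5, 50.2, 54.6 and 34.02 CPM in controls 1 to 4. Stk4 lay at 125, 88.1, 78.5, 94.1, 81.8 and 88.9 CPM in Yap active libraries and 103, 106, 112 and 120.0 CPM in controls. Stk3 was low in control 4 as in Yap active 2 to 6 and high in Yap active 1, and both kinases stood in control 2 at the level of controls 1 and 3. Exons outside the floxed part are still counted, so neither level gives the deleted share. Esr1, where reads of the Cre receptor domain can be counted, lay at 1.97, 244, 211, 335, 276 and 269 CPM in Yap active libraries and 2.06, 160.0, 3.20 and 0.964 CPM in controls. By Esr1, then, the library labelled Yap active 1 lay with controls 1, 3 and 4, and the library labelled control 2 lay far above them and below Yap active 2 to 6. Stk3 and Stk4 went against the label in Yap active 1 but not in control 2.

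The libraries also fell into sets that cut across the labels. The first principal component, 62.1% of the variance of log2 CPM, placed Yap active 2 to 6 with control 4, and Yap active 1 with controls 1 to 3. The labels name no batch, and the sets coincide with columns 1 to 6 and 7 to 10 of the deposited table. Spearman correlations over 15685 genes ran from 0.973 to 0.990 and from 0.975 to 0.989 within the sets, and from 0.916 to 0.963 between them. Airway secretory markers moved with the sets, at 18169 to 27124 CPM in the set with 5 Yap active libraries and 6480 to 9050 CPM in the set with 3 controls, while mesothelial markers summed to 456 to 705 CPM and 845 to 1289 CPM in the same order. Xist, transcribed in female cells, lay at 756, 249, 313, 2.30, 1.15 and 481 CPM in Yap active 1 to 6, against 2.04, 1.70, 2.60 and 446 CPM in controls 1 to 4. Set and sex therefore overlap with the groups, and each of Yap active and control has only 1 library in the set dominated by the other. The results below are given for all libraries as labelled, then without Yap active 1 and control 2, and each time with a term for library set. Once Yap active 1 and control 2 are left out, that term compares Yap active 2 to 6 with control 4 alone.

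**Figure D1:**
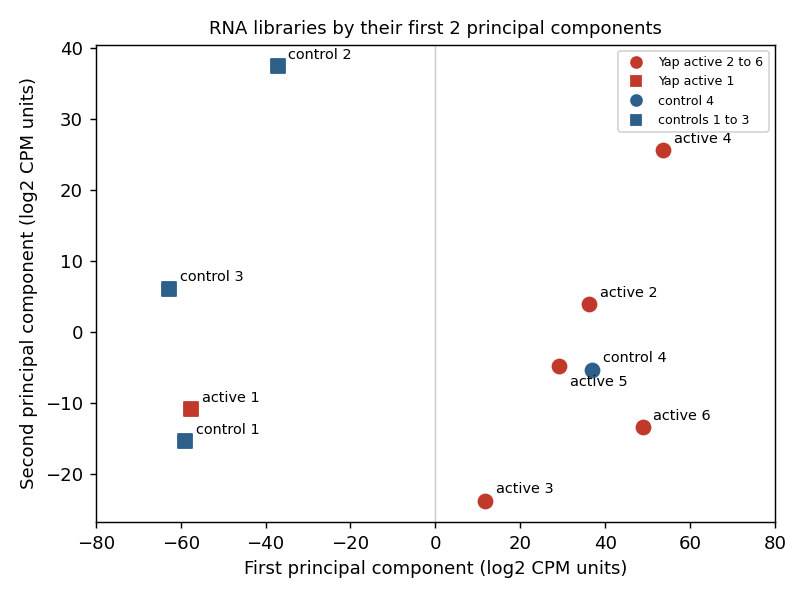
Position of the 10 RNA libraries on the first and second principal components of log2 CPM (62.1% and 9.60% of variance), with Yap active libraries in red and controls in blue. Squares mark Yap active 1 and controls 1 to 3, which lie left of 0, and circles mark Yap active 2 to 6 and control 4, which lie right of it.

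With all libraries as labelled, the genes with the smallest p-values were higher in Yap active libraries for innate immune and cytokine receptors (Cd14, Il4ra), a nucleotide receptor (P2ry2), a membrane carrier (Slco4a1) and growth regulators (Ccnd1, Mycl, Bcl3). They were lower for noncoding RNAs (Snhg11, Peg13) and for the kinase gene Stk26. No gene passed the test at a Benjamini-Hochberg adjusted p under 0.05 in edgeR's quasi-likelihood fit, 0% of the 15685 genes tested in either direction, and the lowest adjusted p was 0.366, which the genes named from this fit share. An unadjusted p under 0.05 was reached by 1043 genes (6.65%) in the higher and 938 (5.98%) in the lower direction. DESeq2 called 14 genes higher and 4 lower, and limma-voom with sample quality weights called 4479 and 4392, where it gave Yap active 1 a weight of 0.183 and control 4 a weight of 0.200, against 0.690 to 2.58 for the others. The 6 Yap active libraries did not overlap the 4 controls for 73 genes lying higher (0.465% of genes tested) and 75 lying lower (0.478%). Within both library sets, every Yap active library lay above every control for 493 genes (3.14%) and below for 386 (2.46%). A random order of these libraries would separate the groups about as often, and at least as often within both sets. Lack of overlap alone therefore marks no group difference.

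Among cytokine and innate immune genes, Bcl3, a nuclear partner of NF-κB subunits, had the smallest p of the named genes. Bcl3 lay at 36.1, 46.1, 34.8, 39.3, 40.99 and 32.4 CPM in Yap active libraries 1 to 6, against 16.3, 23.1, 16.4 and 26.1 CPM in controls 1 to 4. The groups did not overlap, in either library set or across them (log2 fold change 0.90 ± 0.17 SE, unadjusted p = 0.000225). Its difference was 0.75 with the set term (unadjusted p = 0.00106), and 0.57 with that term and without Yap active 1 and control 2 (unadjusted p = 0.0177). Il4ra, the receptor chain shared by interleukin 4 and interleukin 13, lay at 71.7, 82.6, 86.99, 75.3, 81.4 and 80.7 CPM in Yap active libraries and 32.7, 35.1, 32.9 and 69.1 CPM in controls. Control 4, which shares a set with Yap active 2 to 6, came close to the lowest Yap active library, while controls 1 to 3 lay far below. The log2 fold change of Il4ra was 0.91 ± 0.21 SE over all libraries, 0.64 with the set term and 0.24 with the set term and without Yap active 1 and control 2. Cd14, the co-receptor for bacterial lipopolysaccharide, lay at 149.9, 88.1, 81.4, 76.6, 84.7 and 130.5 CPM in Yap active libraries and 31.4, 47.9, 36.8 and 66.7 CPM in controls, and here the highest value was that of Yap active 1 (log2 fold change 1.16 ± 0.27 SE, and 0.47 with the set term and without Yap active 1 and control 2).

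Lcn2, Slpi and Cxcl17 encode secreted defence proteins, and their groups did not overlap, though the order of libraries differed from gene to gene. Lcn2 was named because its groups did not overlap. The same held for 0.465% of genes tested in the higher direction. In the lists, 1 of 28 chemokine and cytokine genes lay higher without overlap. Of 23 complement and coagulation genes 0 did, and 17 had a log2 fold change below 0. Lcn2, which binds bacterial siderophores, lay at 946, 1210.5, 1062, 1848, 1676 and 1576 CPM in Yap active libraries, against 492, 719, 306 and 916 CPM in controls (log2 fold change 1.19 ± 0.32 SE, and 0.69 with the set term and without Yap active 1 and control 2). Yap active 1 and control 4 were nearest to each other. Slpi, an inhibitor of neutrophil elastase, ran from 20.00 to 35.7 CPM in Yap active libraries and from 9.86 to 17.4 CPM in controls, and Cxcl17, a mucosal chemokine, from 18.9 to 33.1 CPM and 9.97 to 17.6 CPM. Leukocyte markers, measured beside them, summed to 1615 to 7110 CPM in Yap active libraries and 1768 to 4166 CPM in controls, and Ptprc, which marks all leukocytes, lay at 0.437 to 13.96 CPM and 0.468 to 10.4 CPM. The sum did not follow Ptprc. Yap active 6 had the highest sum with Ptprc at 0.741 CPM, and Yap active 1 the highest Ptprc with a sum of 1673 CPM. The part of leukocytes in these differences was not tested.

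A further few of the named genes encode receptors and carriers of the cell surface. P2ry2, the receptor for extracellular ATP and UTP, lay at 42.5, 57.97, 57.2, 45.2, 58.9 and 55.5 CPM in Yap active libraries and 27.3, 29.8, 22.7 and 41.5 CPM in controls. The groups met closely in Yap active 1 and control 4, yet did not overlap (log2 fold change 0.80 ± 0.17 SE, 0.53 with the set term, and 0.41 with that term and without Yap active 1 and control 2). Slco4a1, an organic anion and thyroid hormone carrier, lay at 3.64, 5.25, 4.64, 5.91, 7.60 and 4.72 CPM in Yap active libraries, against 2.13, 1.57, 2.26 and 2.97 CPM in controls, and every Yap active library was above every control (log2 fold change 1.24 ± 0.26 SE). Slc5a1, the sodium and glucose cotransporter SGLT1, ran from 21.01 to 45.8 CPM in Yap active libraries and from 9.72 to 20.3 CPM in controls. Gabrp, a subunit of the GABA type A receptor, ran from 50.9 to 86.5 CPM and 23.6 to 47.1 CPM. Scgb1a1, the defining product of airway secretory cells, lay at 3535, 15603, 13091, 9103, 9442 and 11503 CPM in Yap active libraries, against 2682, 3831, 2584 and 8850.0 CPM in controls. All 12 airway secretory markers had a log2 fold change above 0 (median 0.95), and their part in the receptor and transporter values was not tested. The list of epithelial ion channels and transporters had 24 of 28 genes above 0 (49.4% of all genes), with 4 higher (6.65%) and 0 lower (5.98%) at an unadjusted p under 0.05. Its median was 0.28 over all libraries and -0.03 with the set term and without Yap active 1 and control 2.

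Growth and housekeeping genes came next. Ccnd1, the cyclin of the G1 phase, lay at 244, 421, 359, 307, 365 and 435 CPM in Yap active libraries and 201, 202, 230.1 and 236 CPM in controls. Yap active 1 lay close to control 4, and Yap active 2 to 6 well above every control (log2 fold change 0.71 ± 0.17 SE, 0.45 with the set term, and 0.68 with that term and without Yap active 1 and control 2). Mycl, a transcription factor of the Myc family, lay at 32.2, 43.9, 31.7, 37.1, 41.6 and 35.7 CPM in Yap active libraries, against 25.3, 28.1, 21.6 and 23.2 CPM in controls. Its difference held a similar size in the 4 fits, from 0.55 to 0.71 on the log2 scale. Gfer, a sulfhydryl oxidase of the mitochondrial intermembrane space, ran from 28.7 to 40.03 CPM in Yap active libraries and from 20.3 to 27.5 CPM in controls. Tgm1, which cross-links proteins at the surface of barrier epithelia, ran from 16.6 to 24.8 CPM and 4.95 to 16.6 CPM. Its lowest Yap active library and its highest control nearly met.

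Genes lying lower included several RNAs without a protein product. Snhg11, a host transcript of small nucleolar RNAs, lay at 106, 110.3, 61.3, 106, 84.4 and 94.6 CPM in Yap active libraries, against 177, 268, 211 and 123 CPM in controls. No Yap active library reached the lowest control (log2 fold change -1.05 ± 0.22 SE, unadjusted p = 0.000582, -0.72 with the set term, and -0.42 with an unadjusted p of 0.152 with that term and without Yap active 1 and control 2). Peg13, an imprinted transcript inside Trappc9, lay at 60.3, 48.8, 58.7, 55.02, 53.4 and 44.5 CPM in Yap active libraries and 91.4, 81.9, 85.5 and 60.98 CPM in controls, so Yap active 1 and control 4 all but touched. The use of strand in counting was not given in the sources used here, so reads of Trappc9 and Peg13 cannot be told apart, and the same holds for Ccnd1 and Lto1 and for Stk26 and Frmd7. Impact, an imprinted regulator of the translational kinase Gcn2, lay at 10.02 to 18.99 CPM in Yap active libraries and 14.2 to 30.3 CPM in controls, which overlapped through Yap active 1.

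Stk26 was the kinase gene of this group. It stands in the table as 2610018G03Rik (chromosome X, 50841174 to 50893103, GRCm38.p6) and encodes MST4, a relative of MST1 and MST2 in the sterile 20 kinase family. 2610018G03Rik lay at 9.26, 6.43, 5.69, 6.64, 6.96 and 7.19 CPM in Yap active libraries, against 11.1, 13.2, 13.1 and 9.31 CPM in controls. Yap active 1 and control 4 all but touched without overlap, and the others were well separated (log2 fold change -0.73 ± 0.17 SE, unadjusted p = 0.00125). The log2 fold change ran from -0.77 without Yap active 1 and control 2 to -0.47 with the set term. Caprin2, an RNA-binding protein, lay at 7.28, 5.02, 4.87, 5.39, 5.44 and 5.40 CPM in Yap active libraries and 10.5, 8.87, 8.80 and 7.44 CPM in controls (log2 fold change -0.68 ± 0.17 SE). Tet2, an enzyme that oxidises methylcytosine in DNA, ran from 41.8 to 61.04 CPM in Yap active libraries and from 62.6 to 74.6 CPM in controls. Ppargc1a, a coactivator of mitochondrial genes, ran from 7.54 to 13.04 CPM and 13.5 to 20.5 CPM.

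**Figure D2:**
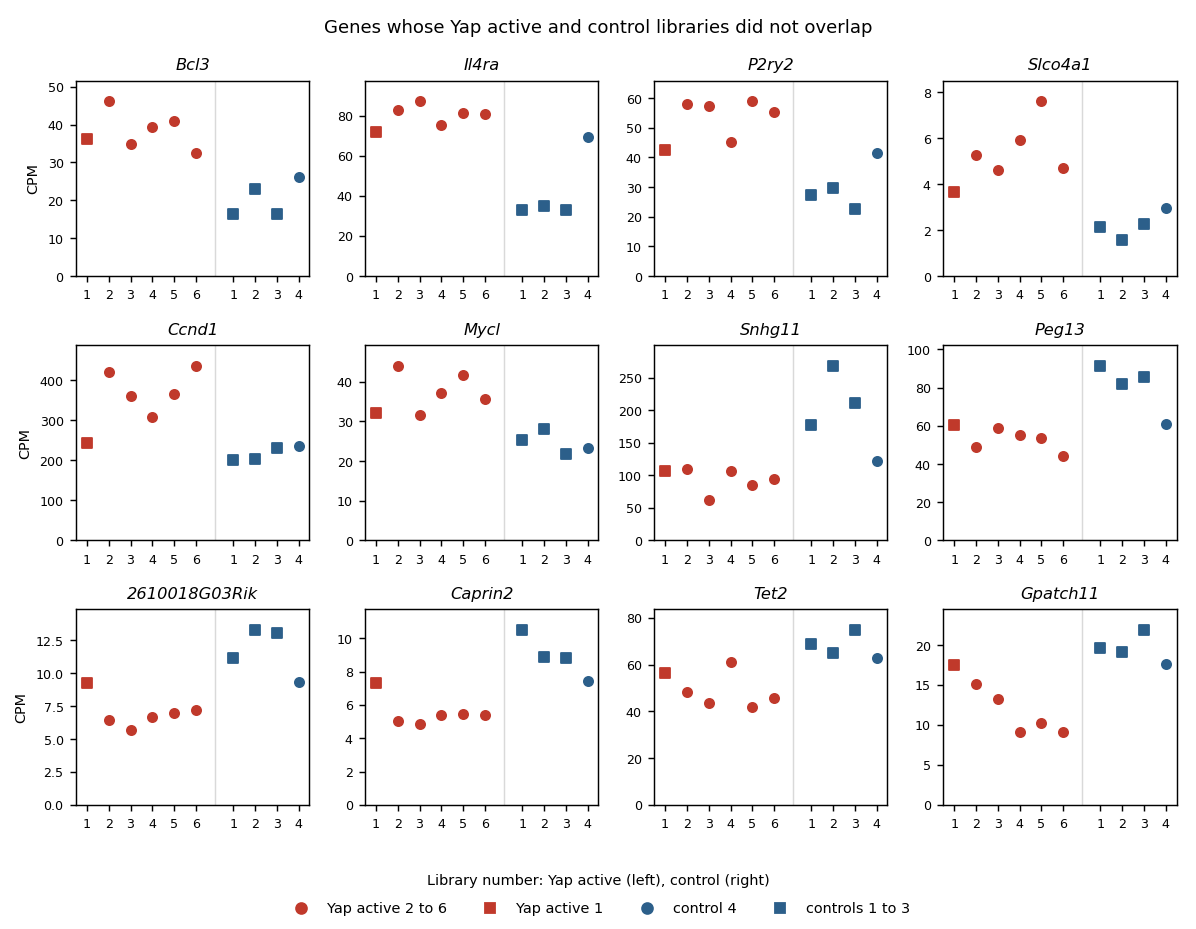
CPM of 12 genes in each library, Yap active 1 to 6 in red on the left of each panel and control 1 to 4 in blue on the right, squares marking Yap active 1 and controls 1 to 3. In every panel the groups do not overlap, and Yap active 1 or control 4 is the library nearest to the other group in most of them, as for 2610018G03Rik.

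4 of the genes just described had a region of increased accessibility over the bases before their start site. For the Yap active genotype the authors list 6017 opened and 1392 closed regions. Of 28 named genes whose groups did not overlap, 19 were matched in a table of RefSeq promoters (GRCm38.p6), and for 4 the 250 bases before the start overlapped an opened region. The share over all promoters was not counted, so the 4 of 19 cannot be read as a result. In RNA, Slco4a1, P2ry2 and Gabrp lay higher and Caprin2 lower. Those 250 bases are shown here 5′ to 3′ on the gene's strand. Capitals mark CCACCC or its reverse complement GGGTGG, the core bound by Klf factors.
Slco4a1, chr2:180455995-180456244, plus strand: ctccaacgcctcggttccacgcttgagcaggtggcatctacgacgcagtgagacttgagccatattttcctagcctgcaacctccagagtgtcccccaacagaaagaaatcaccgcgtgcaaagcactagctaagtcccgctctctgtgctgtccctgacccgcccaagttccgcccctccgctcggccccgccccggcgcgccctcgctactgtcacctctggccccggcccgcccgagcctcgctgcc
P2ry2, chr7:101012054-101012303, minus strand: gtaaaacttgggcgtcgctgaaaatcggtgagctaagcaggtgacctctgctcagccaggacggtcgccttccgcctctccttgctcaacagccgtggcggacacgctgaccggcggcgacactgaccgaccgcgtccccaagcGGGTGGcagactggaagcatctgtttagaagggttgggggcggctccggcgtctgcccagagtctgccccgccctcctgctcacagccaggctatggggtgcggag
Gabrp, chr11:33578958-33579207, minus strand: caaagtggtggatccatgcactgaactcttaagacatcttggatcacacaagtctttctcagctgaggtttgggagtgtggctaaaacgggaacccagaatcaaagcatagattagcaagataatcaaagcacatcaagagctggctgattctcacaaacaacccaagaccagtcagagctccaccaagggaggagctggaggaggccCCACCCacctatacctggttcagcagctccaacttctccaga
Caprin2, chr6:148896238-148896487, minus strand: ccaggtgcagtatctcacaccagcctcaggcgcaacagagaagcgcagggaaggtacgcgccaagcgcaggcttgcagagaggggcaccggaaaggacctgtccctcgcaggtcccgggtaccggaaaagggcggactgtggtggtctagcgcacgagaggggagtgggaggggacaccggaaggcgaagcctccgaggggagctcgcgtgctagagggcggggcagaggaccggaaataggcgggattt
The opened region covered all 250 bases for Slco4a1, P2ry2 and Caprin2 and 36 of them for Gabrp. For Gabrp these were the first 36 bases printed, so the capitals in its window lie outside the opened region. For P2ry2 the first of the listed starts is shown. The authors annotated the region as intergenic for Slco4a1, 4.76 kb before the start they used, which differs from the RefSeq start shown, as promoter for P2ry2 and Gabrp and as the 5′ UTR in exon 1 for Caprin2. P2ry2 and Gabrp held 1 Klf core each and Slco4a1 and Caprin2 none, where 28.1% of 32851 promoter windows of the same length hold one. GGAATG of Tead factors (12.6% of windows), TGANTCA of AP-1 (6.75%) and TTGGCA, the NFI core (12.3%), each searched on both strands, were found in none of these windows. A match describes letters only.

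Opened regions were listed at overlapping shares for genes in either direction. An opened region within 50 kb of the start site was listed for 3664 of 15685 genes tested, or 23.4% (95% Wilson interval 22.7 to 24.0, counting error only). The share was 23.2% (20.7 to 25.9) of genes higher at an unadjusted p under 0.05 and 22.5% (19.9 to 25.3) of genes lower. Among non-overlapping genes it was 17.8% (10.7 to 28.1) of those higher and 16.0% (9.40 to 25.9) of those lower. Closed regions were listed for 5.66% (4.41 to 7.23) of the higher and 2.13% (1.38 to 3.27) of the lower genes, against 4.36% (4.05 to 4.69) of all. Among non-overlapping genes the closed share was 9.59% (4.72 to 18.5) of those higher and 2.67% (0.734 to 9.21) of those lower. At an unadjusted p under 0.05 without Yap active 1 and control 2, the opened share was 22.2% (20.4 to 24.0) higher and 25.6% (23.9 to 27.4) lower. The closed share was then 5.46% (4.57 to 6.51) and 3.05% (2.44 to 3.81). These intervals hold counting error only, and the difference between directions was not tested. Among genes named above, closed regions lay in exon 11 of Il4ra (chr7:125575369-125575998) and 61.15 kb before the start of Ccnd1.

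Without Yap active 1 and control 2, the libraries whose Esr1 reads went against their labels, 13 genes rose in Yap active libraries and 0 fell. Among them were Cdkn1a, which encodes the cell cycle inhibitor p21, the stress cytokine gene Gdf15, the histamine-forming enzyme gene Hdc and the death effector gene Bax. These 13 were 0.0833% of 15602 genes tested by edgeR's quasi-likelihood fit of 5 Yap active against 3 control libraries, and the 0 lower genes 0%. An unadjusted p under 0.05 was reached by 2125 genes in the higher (13.6%) and 2455 in the lower direction (15.7%), and the groups did not overlap for 875 (5.61%) and 756 genes (4.85%). DESeq2 called 770 and 1173 genes, and limma-voom with sample quality weights 4487 and 4310, where it gave control 4 a weight of 0.127. One of the 13 is Esr1 itself, which chose the libraries and is no finding, which leaves 12. The choice sets libraries with Cre receptor reads against libraries almost without them. In these calls, carrying Cre and losing Stk3 and Stk4 therefore cannot be told apart. Without control 4 in addition, edgeR called 3836 genes higher and 3256 lower, but all Yap active libraries then lay in one library set and both controls in the other.

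Cdkn1a, Gdf15 and Hdc shared the lowest adjusted p after Esr1. Cdkn1a lay at 635, 313, 576, 541 and 481 CPM in Yap active 2 to 6, against 55.9, 49.1 and 68.7 CPM in controls 1, 3 and 4. Every one of these Yap active libraries stood far above the 3 controls (log2 fold change 3.13 ± 0.26 SE, adjusted p = 0.00366). In the libraries left out, Yap active 1 held 60.4 CPM and control 2 held 300.0 CPM, so each lay nearer to the other group than to its own, as their Esr1 did. Gm16197, the lincRNA that RefSeq names Trp53cor1, lies beside Cdkn1a on chromosome 17 (29057474 to 29079126, with Cdkn1a at 29090979 to 29100722, GRCm38.p6). Gm16197 lay at 5.19, 2.49, 6.23, 4.77 and 5.74 CPM in Yap active 2 to 6, against 0.577, 0.461 and 0.275 CPM in controls 1, 3 and 4 (log2 fold change 3.46 ± 0.41 SE, adjusted p = 0.0316). Control 2 held 5.31 CPM and Yap active 1 0.564 CPM. Gm16197 was chosen after its values were seen.

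Gdf15, a cytokine of the TGF-β family secreted by stressed cells, lay at 70.3, 33.2, 63.1, 61.5 and 45.3 CPM in Yap active 2 to 6, against 3.86, 2.44 and 4.57 CPM in controls 1, 3 and 4 (log2 fold change 3.91 ± 0.33 SE, adjusted p = 0.00366). Control 2, with 33.98 CPM, stood among the Yap active libraries. An opened region lay in intron 2 of 2 of Gdf15 by the authors' annotation (chr8:70629470-70631538). Hdc, the enzyme that makes histamine from histidine, lay at 388, 375, 388, 403 and 428 CPM in Yap active 2 to 6 and 156, 166 and 167 CPM in controls 1, 3 and 4 (log2 fold change 1.28 ± 0.11 SE, adjusted p = 0.00366). 9030617O03Rik, the D-glutamate cyclase gene that RefSeq names Dglucy, was called by edgeR too (log2 fold change 2.23 ± 0.25 SE, adjusted p = 0.0315). With the set term added, the log2 fold change was 1.24 for Hdc and 2.84 for 9030617O03Rik. 9030617O03Rik lay at 36.7, 22.4, 34.9, 34.03 and 36.01 CPM in Yap active 2 to 6, against 8.43, 7.83 and 4.57 CPM in controls 1, 3 and 4. In the libraries left out, Yap active 1 held 5.53 CPM and control 2 20.05 CPM. 4 genes were called with the set term, 0.0256% of those tested, and the others were Esr1 and Phlda3.

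Phlda3, an inhibitor of Akt at the membrane and a known p53 target, was called with the set term and not without it (log2 fold change 2.82 ± 0.29 SE, adjusted p = 0.0478, against 1.88 ± 0.31 SE and 0.113 without the term), and was chosen after its values were seen. Phlda3 lay at 136, 110.4, 123, 130.1 and 129 CPM in Yap active 2 to 6, against 52.6, 31.6 and 17.8 CPM in controls 1, 3 and 4. Control 4, the only one of these in the same set as the Yap active libraries, was the lowest. Bax, a pore-forming death effector, lay at 62.99, 49.1, 66.5, 69.2 and 68.1 CPM in Yap active 2 to 6 and 22.8, 17.5 and 29.3 CPM in controls (log2 fold change 1.44 ± 0.19 SE, adjusted p = 0.0385). Aen, a nuclease of apoptotic cells, ran from 42.1 to 53.6 CPM in Yap active libraries and from 17.1 to 25.3 CPM in controls, and Zmat3, an RNA-binding zinc finger protein, from 65.5 to 113 CPM and 36.3 to 39.04 CPM. Both are known p53 targets, and both rose (adjusted p = 0.0368 for Aen and 0.0385 for Zmat3).

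The rest of the calls were Ephx1, Klk14, Klhdc8a and 1110008F13Rik. Ephx1, the epoxide hydrolase of xenobiotic metabolism, ran from 130.4 to 204 CPM in Yap active 2 to 6 and from 54.3 to 75.2 CPM in controls 1, 3 and 4 (log2 fold change 1.48 ± 0.18 SE, adjusted p = 0.0316). Klk14, a secreted serine protease, ran from 14.96 to 23.4 CPM and 6.47 to 8.15 CPM, while Yap active 1 held 4.12 CPM and control 2 16.02 CPM. Klhdc8a ran from 38.3 to 42.1 CPM and 19.97 to 24.4 CPM, though Yap active 1 held 34.5 CPM, nearer to its own group than was so for Cdkn1a. Control 2 held 40.5 CPM of Klhdc8a, among Yap active 2 to 6. The last was 1110008F13Rik, named Rab5if in RefSeq, at 55.4, 49.9, 53.7, 44.7 and 68 CPM in Yap active 2 to 6 and 26, 25.1 and 26.5 CPM in controls. It was also among the non-overlapping genes of all libraries, where control 2 held 26.96 CPM and Yap active 1 30.7 CPM.

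Cdkn1a, Gdf15 and Hdc were called on leaving out each of the 8 libraries in turn, whereas the other calls of this fit, Esr1 aside, were lost without at least 1 library of either group. With the set term Cdkn1a (log2 fold change 2.89 ± 0.39 SE, adjusted p = 0.161) and Gdf15 (3.58 ± 0.51 SE, adjusted p = 0.278) were not called, and in that fit control 4 is the only control in a set with Yap active libraries. Over all libraries, as labelled, Cdkn1a overlapped between the groups (log2 fold change 1.88 ± 0.70 SE, adjusted p = 0.366).

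**Figure D3:**
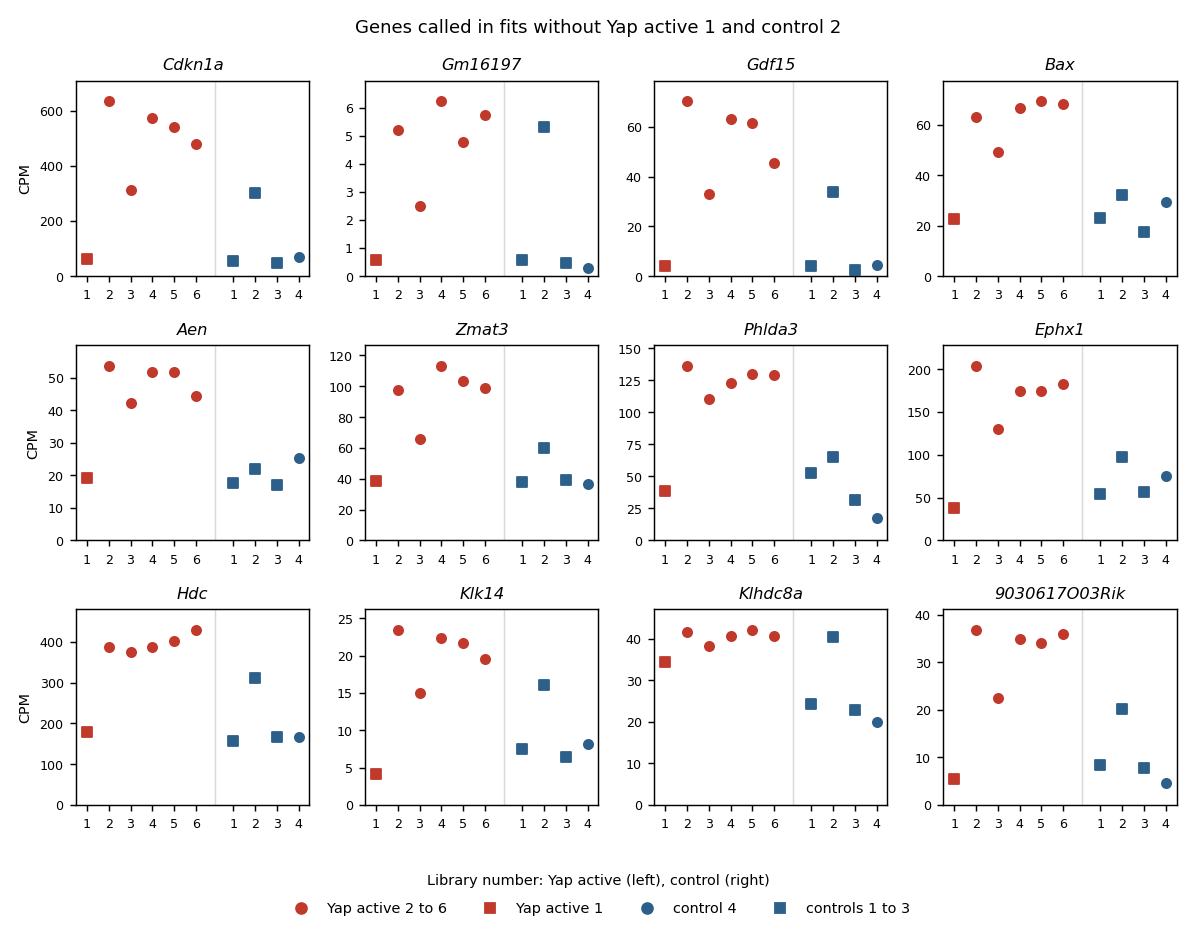
CPM of 12 genes called in fits without Yap active 1 and control 2, by library, Yap active in red on the left and control in blue on the right of each panel, squares marking Yap active 1 and controls 1 to 3. For Cdkn1a, Yap active 1 (60.4 CPM) sits at the level of controls 1, 3 and 4, and control 2 (300.0 CPM) approaches Yap active 3 (313 CPM).

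edgeR called no gene lying lower in that comparison, where DESeq2 called 1173, and the genes named here are those with the smallest p in edgeR. Il1r1, the signalling receptor of interleukin 1, had the smallest p among the named genes in this direction. Il1r1 lay at 53.01, 52.6, 51.4, 51.3 and 54.7 CPM in Yap active 2 to 6, against 77.5, 88.9 and 74.01 CPM in controls 1, 3 and 4 (log2 fold change -0.61 ± 0.10 SE, adjusted p = 0.101). Yap active 2 to 6 lay close together, and Yap active 1 held 84.98 CPM. Plagl1, an imprinted zinc finger gene, ran from 61.9 to 72.6 CPM in Yap active 2 to 6 and from 96.8 to 111 CPM in the 3 controls. Cfb, factor B of complement, ran from 14.7 to 17.8 CPM and 22.6 to 34.1 CPM. Gbp2, an interferon-induced GTPase, ran from 5.24 to 11.03 CPM and 15.04 to 29.5 CPM. For Il1r1, Plagl1, Cfb and Gbp2, Yap active 1 lay above Yap active 2 to 6, and for Plagl1, Cfb and Gbp2 above every control too.

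Fras1, a basement membrane protein, ran from 37.3 to 56.4 CPM in Yap active 2 to 6 and from 69.1 to 90.7 CPM in controls 1, 3 and 4. Gpm6a, a membrane glycoprotein, ran from 14.2 to 31.8 CPM and 39.8 to 144 CPM, with its lowest control, 4, in the set of Yap active 2 to 6. Sbsn, a secreted protein of stratified epithelia, ran from 7.10 to 11.5 CPM and 16.8 to 41.5 CPM. Mesothelial markers were lower in the same libraries, with sums of 456 to 648 CPM in Yap active 2 to 6 and 705 to 1111 CPM in controls 1, 3 and 4. Mesenchymal sums overlapped, at 1442 to 6100 CPM in Yap active 2 to 6 and 3026 to 9353 CPM in controls 1, 3 and 4. Of 14 endothelial markers, 1 lay above 0 (50.2% of all genes), and their median log2 fold change was -2.53. At an unadjusted p under 0.05 in edgeR, 12 were lower (15.7% of all genes) and 1 higher (13.6%). The endothelial median was 0.24 with the set term, and 0.09 with that term over all libraries. The part of these cells in the lower genes was not tested. With the set term the log2 fold changes of both Gpm6a and Il1r1 were nearer 0, for Gpm6a at -0.73, against -1.98 without the term, and for Il1r1 at -0.49, against -0.61.

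Programmes were described by 31 lists of genes, each by counts and by the median log2 fold change of its tested members, beside a median of -0.01 over all genes tested. Of the 31 medians, 11 lay above 0 and 2 below 0 in each of the 4 fits, and 18 changed sign between fits. In the fit with the set term and without Yap active 1 and control 2 the median over all genes was 0.02, and 4 of the 11 lists above 0 lay at 0.00 (cytosolic chaperones, tRNA synthetases, apoptosis regulators) or 0.01 (purinergic and other receptors), under that median. The lists above 0 covered proteasome, cytosolic chaperones, unfolded protein response, amino acid response and one-carbon metabolism, glycolysis, antioxidants, purinergic and other receptors, apoptosis regulators, retinoid and xenobiotic metabolism, nucleotide synthesis and tRNA synthetases. The lists below 0 were circadian clock and hypoxia response. edgeR called no list gene over all libraries, where DESeq2 called Il4ra and P2ry2 of the lists, and edgeR called Bax and Ephx1 without Yap active 1 and control 2. Calls by limma-voom were not counted by list.

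**Figure D4:**
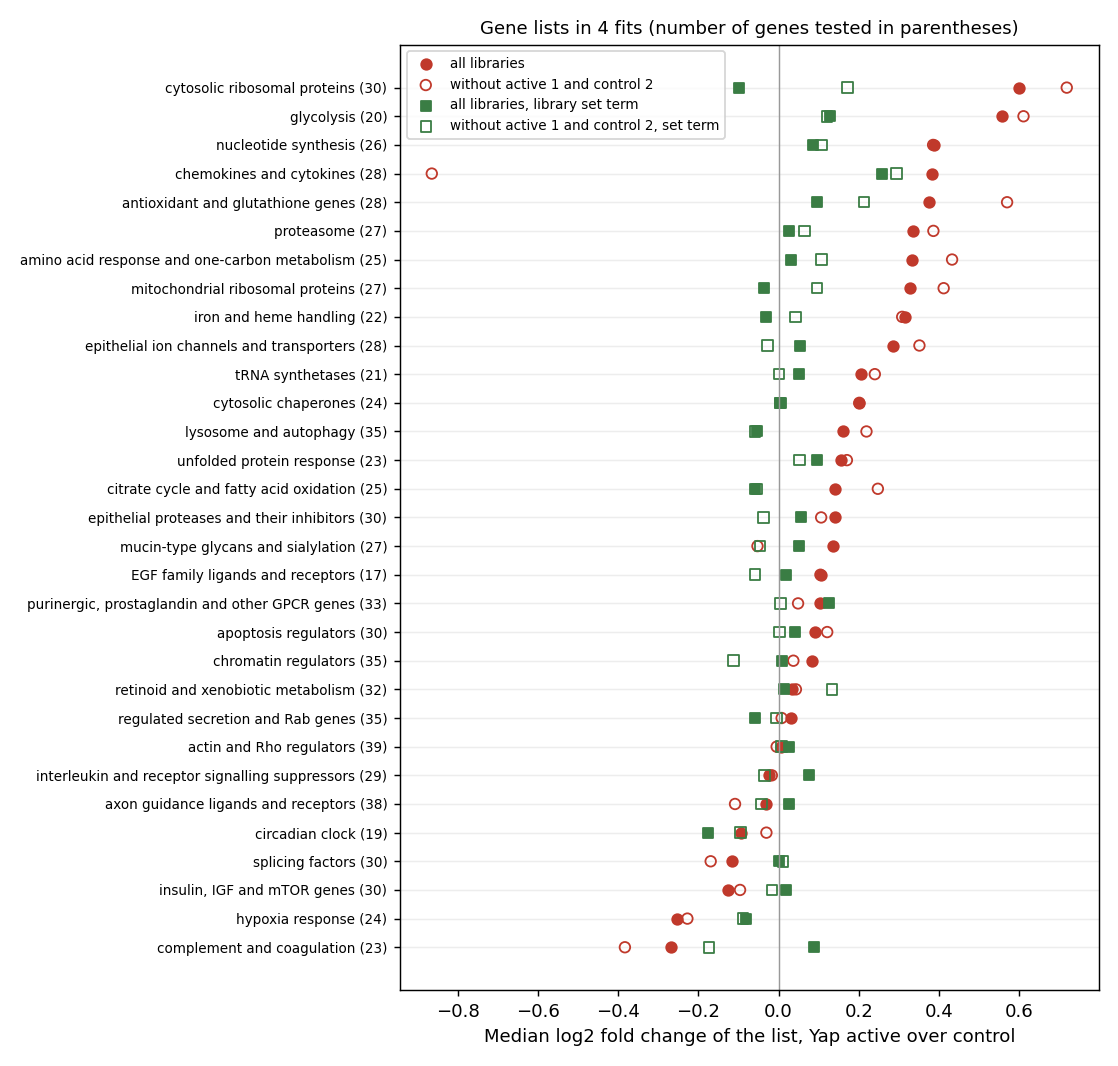
Median log2 fold change, Yap active over control, of each of 31 gene lists in 4 fits, with the number of tested genes in parentheses. Red circles are fits without and green squares fits with a term for library set, and the squares cluster near 0 where most circles do not, as for cytosolic ribosomal proteins (0.60, 0.72, -0.10 and 0.17).

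Glycolysis, the breakdown of glucose to pyruvate, was the metabolic list with the largest median in the fit of all libraries (0.56), though not in every fit. Of its 20 genes, 12 were higher at an unadjusted p under 0.05 and 0 lower, beside 6.65% and 5.98% of all genes. Pfkl, the liver form of phosphofructokinase, lay at 47.7, 81.05, 78.3, 76.6, 78.8 and 63.3 CPM in Yap active libraries, against 36.9, 35.2, 44.4 and 58.3 CPM in controls. Ldha, which turns pyruvate to lactate, lay at 219.7, 364, 372, 409.5, 394 and 469.7 CPM in Yap active libraries and 186, 208, 189 and 374 CPM in controls, and Pkm, pyruvate kinase, at 202, 379, 388, 399, 374 and 394 CPM and 173, 201, 186 and 386 CPM. For Ldha and Pkm the values went with the library set, control 4 lying with Yap active 2 to 6 and Yap active 1 with controls 1 to 3. With the set term, the list median was 0.13, 2 genes were higher at an unadjusted p under 0.05 (1.86% of all genes) and 0 lower (0.937%). Without Yap active 1 and control 2, that term left 2 genes higher (3.26% of all genes) and 0 lower (1.15%). The log2 fold change of Pfkl over all libraries was 0.70 ± 0.19 SE, and 0.34 with the term (unadjusted p = 0.0161). Opened regions were centred 0.056 kb from the start of Pfkl, 0.098 kb from that of Pkm and 0.381 kb from that of Ldha.

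Cytosolic ribosomal protein genes depended on the library set as well, though the fits with the set term differed in sign. Of 30 genes, 29 had a log2 fold change above 0 (median 0.60), beside 49.4% of all genes, yet 3 reached an unadjusted p under 0.05 in that direction and 1, Rpl23, in the other. Without Yap active 1 and control 2, 28 reached it (13.6% of all genes) with a median of 0.72. With the set term 4 of 30 lay above 0 over all libraries (median -0.10), and 30 of 30 without Yap active 1 and control 2 (median 0.17), where 52.9% of all genes did. Rplp0, a protein of the ribosomal stalk, lay at 92.9, 412, 237, 216, 397 and 513 CPM in Yap active libraries, against 97.7, 122, 148 and 235 CPM in controls. Many processed copies of ribosomal protein genes exist, so how reads were shared among them is uncertain.

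The unfolded protein response, which raises chaperones when proteins misfold in the endoplasmic reticulum, had members that kept their groups apart. Of 23 genes, 17 lay above 0 (49.4% of all genes), with a median of 0.15. In the higher direction 6 reached an unadjusted p under 0.05 (6.65% of all genes) and 0 in the lower (5.98%), and for 3 the groups did not overlap (0.465%). Hyou1, a chaperone of the Hsp70 family, lay at 208, 218, 246, 258, 233 and 218 CPM in Yap active libraries, against 142, 147, 152 and 206 CPM in controls (log2 fold change 0.51 ± 0.13 SE). Yap active 1 and control 4 nearly met. Sdf2l1, a partner of Hspa5 that was chosen after its values were seen, lay at 22.9, 26.1, 37.4, 29.1, 32.9 and 55.2 CPM in Yap active libraries and 16.4, 18.8, 14.99 and 21.5 CPM in controls (log2 fold change 0.92 ± 0.24 SE). Calr, a lectin chaperone, ran from 529 to 719 CPM and 452 to 518 CPM. Without Yap active 1 and control 2, the set term left a list median of 0.05, with 0 genes higher and 1 lower at an unadjusted p under 0.05. Over all libraries the median was 0.10 with the set term, and Hyou1 and Sdf2l1 differed by 0.34 and 0.61 (unadjusted p = 0.00802 and 0.0346). With that term and without Yap active 1 and control 2 they differed by 0.19 and 0.75 (unadjusted p = 0.199 and 0.0777).

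**Figure D5:**
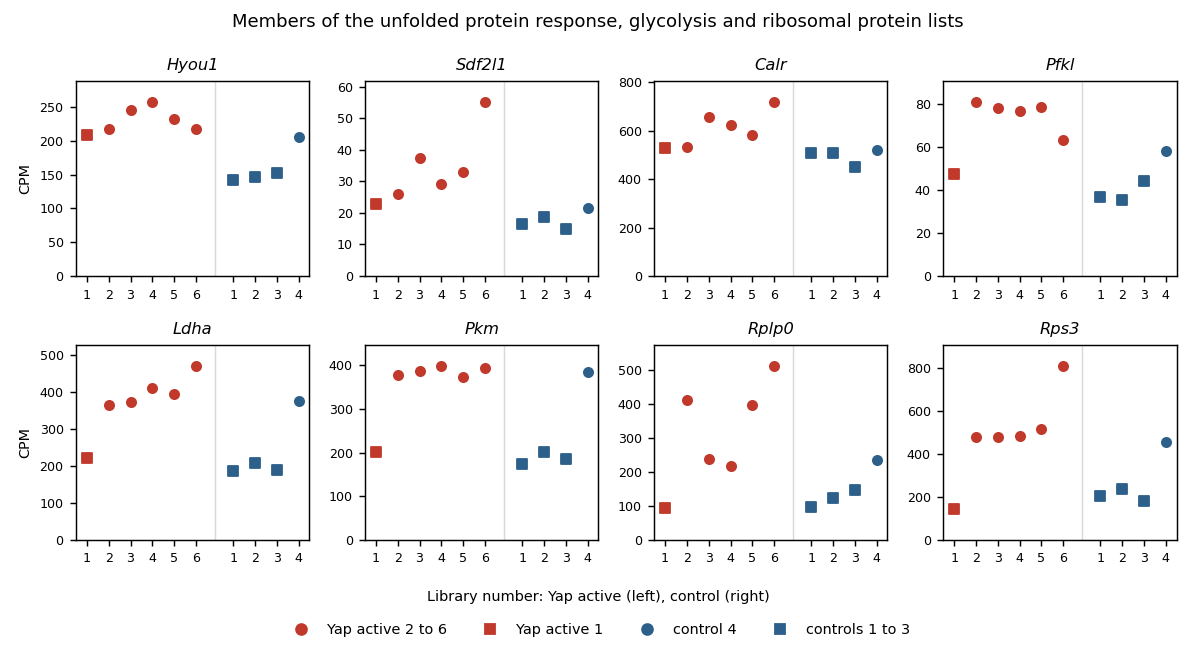
CPM of 3 unfolded protein response genes, 3 glycolysis genes and 2 ribosomal protein genes by library, Yap active in red on the left and control in blue on the right of each panel, squares marking Yap active 1 and controls 1 to 3. Hyou1, Sdf2l1 and Calr keep every Yap active library above every control, while for Ldha, Pkm and Rps3 control 4 lies apart from controls 1 to 3 and Yap active 1 apart from the other Yap active libraries.

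Antioxidant and glutathione genes had 23 of 28 above 0 (49.4% of all genes), with a median of 0.38. An unadjusted p under 0.05 was found for 6 in the higher direction (6.65% of all genes) and 0 in the lower (5.98%). Gclc, the rate-limiting enzyme of glutathione synthesis, lay at 459.6, 502, 359, 473, 437 and 608 CPM in Yap active libraries, against 212, 460.1, 287 and 294 CPM in controls. Control 2 stood among the Yap active libraries, and without it and Yap active 1 the groups did not overlap (log2 fold change 0.85 ± 0.20 SE). Gstm1, a glutathione transferase with close paralogs, ran from 46.9 to 110.0 CPM in Yap active libraries and from 40.3 to 61.6 CPM in controls. The list median was 0.10 and 0.21 in the fits with the set term. In nucleotide synthesis, 23 of 26 lay above 0 (median 0.39), and the median was 0.08 and 0.11 in the fits with the set term. Ctps, which makes CTP, ran from 36.9 to 56.7 CPM and 20.5 to 37.3 CPM, with control 4 at 37.3 CPM overlapping the Yap active libraries.

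The hypoxia list had 16 of 24 genes below 0 (median -0.25), 5 at an unadjusted p under 0.05 in that direction (5.98% of all genes) and 1, Slc2a1, in the other (6.65%). Its median was -0.08 and -0.09 in the fits with the set term. Vldlr, the receptor for very low density lipoprotein, lay at 116, 90.6, 92.9, 117, 88.04 and 79.1 CPM in Yap active libraries and 137, 155, 126 and 116 CPM in controls, overlapping through Yap active 1 and 4. Slc2a1, the glucose carrier GLUT1, lay at 39.9, 52.5, 45.2, 45.1, 58.1 and 43.2 CPM in Yap active libraries, against 31.97, 40.9, 38.8 and 34.5 CPM in controls. The clock list had 11 of 19 genes below 0 (median -0.09), and 1 of them, Nr1d2, a nuclear receptor of the clock, reached an unadjusted p under 0.05, near the share of all genes (5.98%). It ran from 48.8 to 94.6 CPM in Yap active libraries and from 78.5 to 110.3 CPM in controls. The hour of collection was not given in the sources used here.

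Signs of other lists turned with the libraries. Chemokines and cytokines had a median of 0.38 over all libraries and of -0.87 without Yap active 1 and control 2, where 10 of 27 lay above 0. Splicing factors had 21 of 30 genes below 0 (median -0.12), with Hnrnpa1, a repressor of exon inclusion, at 17.9 to 29.3 CPM in Yap active libraries and 22.9 to 41.5 CPM in controls, and the median was 0.00 with the set term. Insulin and IGF genes had a median of -0.13, and 0.02 with the set term. Igfbp6, a binding protein for IGF2, ran from 103 to 136 CPM in Yap active libraries and from 116 to 227 CPM in controls. Igfbp5 lay at 3151, 984, 1014, 598, 947 and 463 CPM in Yap active libraries, against 2499, 3192, 4297 and 966 CPM in controls, where Yap active 1 lay with controls 1 to 3 and control 4 with Yap active 2 to 6. The mesenchymal marker sums of the sets overlapped, at 1442 to 6100 CPM in the set with 5 Yap active libraries and 5052 to 9353 CPM in the other.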

How the data were processed

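The authors sequenced poly(A) RNA of EPCAM-positive lung cells and deposited raw counts per gene symbol for 6 Yap active and 4 control libraries. Per the submitters' processing notes, the build was mm10 and the tools included Trim Galore, Bowtie2, Cufflinks, DESeq and HOMER; their versions, the counting program and the gene annotation are not given in the sources used here. The authors also deposited lists of opened and closed regions with a score for each region, used only to describe regions within a list. Of 23478 gene rows, 27 carried names turned into dates and were not named, and 2 names occurred more than once.

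Groups were taken from the labels. Counts were fitted with edgeR 4.0.16 in R 4.3.3 (filterByExpr, TMM scaling, robust quasi-likelihood test, Benjamini-Hochberg adjustment over all genes tested, threshold 0.05), first on all libraries and then without Yap active 1 and control 2. Both fits were repeated with a term for library set, an alternative chosen after the data were seen. DESeq2 1.42.0, limma 3.58.1 (voom with sample quality weights), other scaling, no count filter, a sex term from Xist (over 50 CPM), a replicate block and leaving out each library were tried as well. Libraries held 34.98 M to 43.5 M counts, and what limited precision most was not tested. The statistics were tested on simulated data without library sets, sex differences or libraries against their label. That test therefore does not cover these features.

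Named genes were, at a mean of 4 CPM or more, the 12 per direction with the smallest p in each fit and the 6 per direction with the largest difference among genes not overlapping, outside the alveolar lists, with leading, smallest-p or called members of the 31 programme lists. Another 3 genes were chosen after their values were seen, as stated beside them. Members and lists were chosen with earlier results of these data known. Libraries of the Yap deleted line were not used here. Accessibility was read from region lists only, by the authors' distance to a start site within 50 kb.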

Additional observations from a re-analysis of the deposited data

Results flagged for a closer look

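In 154 groups of 4 or 6 values tested by Dixon's criterion, 40 held a library standing apart from the rest of its group. Chance flags about 1 in 20 groups, but many of these genes were named for small p-values without Yap active 1 and control 2, so that rate does not apply to flags in those libraries. Of the flags, 23 fell on Yap active 1, 7 on control 2, 7 on control 4, 2 on control 3 and 1 on Yap active 6. All values are CPM.

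Yap active 1 stood above the other Yap active libraries for Stk3 at 49.5, Stk4 at 125, the endothelial marker Pecam1 at 14.6, the leukocyte marker Ptprc at 13.96, Impact at 19.0, Caprin2 at 7.28 and Polr3gl, a subunit of RNA polymerase III, at 19.0. It also stood above them for Il1r1 at 85.0, Plagl1 at 166, Cfb at 61.8, Gbp2 at 36.7, Fgl2 at 16.3, Fras1 at 114, Gpm6a at 116, Sbsn at 41.0, Igfbp5 at 3151, Ctps at 56.7 and the ribosomal protein gene Rpl23 at 33.7. It stood below them for Esr1 at 1.97, Hdc at 179, Aen at 19.0, Phlda3 at 38.4 and Pkm at 202.

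Control 2 stood above the other controls for Esr1 at 160.0, Cdkn1a at 300.0, Gdf15 at 33.98, Hdc at 312, Gm16197 at 5.31, Zmat3 at 60.2 and Ppargc1a at 20.5. Of these genes, Esr1 chose the library and all but Ppargc1a were called without it, so its place apart is no separate evidence.

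Control 4 stood above the other controls for Xist at 446, Sftpc at 83336, Il4ra at 69.1, Hyou1 at 206, Ldha at 374 and Pkm at 386, and below them for Impact at 14.2. Control 3 stood below the others for Cxcl17 at 9.97 and Calr at 452. Yap active 6 stood above the other Yap active libraries for Slpi at 35.7.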

How the results depend on the processing

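Over all libraries, DESeq2 called 14 genes higher and 4 lower, and limma-voom 4479 and 4392 (4841 and 4903 at an unadjusted p under 0.05). At an unadjusted p under 0.05, a sex term left 459 higher and 219 lower, and the set term 292 and 147. Leaving out Yap active 1 and control 2 gave 13 higher at an adjusted p under 0.05, and 2125 higher and 2455 lower unadjusted. Leaving out 1 library gave 0 to 2 higher and 0 lower at an adjusted p under 0.05, and 270 to 3224 higher and 341 to 2992 lower unadjusted. Of 1386 values of 77 genes, 10 reversed and the cause was not tested. With the set term the log2 fold change turned to 0.13 for Cfb, -0.11 for Rps3, -0.75 for Sftpc, 1.37 for Ptprc and 0.21 for Col1a1, and with the sex term to -0.16 for Xist. Leaving out 1 library, Sftpc ran from -0.10 to 1.24 and Ptprc from -1.78 to 0.62.

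Without Yap active 1 and control 2, RLE scaling gave 12 higher and no count filter 14, with 0 lower in both. DESeq2 called 770 higher and 1173 lower, and limma-voom 4487 and 4310 (4894 and 4833 unadjusted). The sex term left 6 higher at an adjusted p under 0.05 and 1357 lower unadjusted, and the set term 4 higher, with 508 higher and 180 lower unadjusted. Leaving out 1 library gave 4 to 3836 higher and 0 to 3256 lower at an adjusted p under 0.05, and 674 to 4469 higher and 1030 to 4061 lower unadjusted, the highest values without control 4. Of 1155 gene values, 84 lost and 176 gained a call and 16 reversed. With the set term the log2 fold change turned to -1.09 for Xist, -0.98 for Sftpc, -0.24 for Ager, 0.10 for Pecam1, 1.40 for Ptprc, 0.25 for Col1a1 and 0.062 for Rpl23, with the sex term to -0.40 for Xist and with the replicate block to -0.30 for Xist and -0.046 for Sftpc. Leaving out 1 library, Xist ran from -0.085 to 6.50 and Sftpc from -0.26 to 1.24. List medians moved beyond their limits in 31 of 558 settings over all libraries and in 71 of 465 here.

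Replicate numbers did not pair the libraries. Deviations of same-numbered libraries correlated by 0.553, 0.0312, 0.0552 and 0.530 for numbers 1 to 4, and only numbers 1 and 4 matched their own best. A replicate block over numbers 3 and 4 gave 5 higher and 24 lower at an adjusted p under 0.05, and 200 and 687 unadjusted. With 1 Yap active or 1 control library in a set, the number of libraries limits every comparison within sets.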
